A study of Mus musculus with 6 samples.

Results

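Scavenger receptors are proteins through which macrophages bind and take up modified lipoproteins, microbial surfaces and the debris of dead cells. The 7 genes described here, Msr1, Marco, Colec12, Scarb1, Scarb2, Olr1 and Cd5l, were picked by gene symbol from the 54532 genes of the deposited count table. All 7 were listed and all 7 passed the expression filter, which kept 14522 genes. They were measured by RNA-seq in cardiac macrophages of 12-week-old C57BL/6 mice (given as C57Bl6J background in the reporting summary of the study) 7 days after permanent coronary occlusion, a model of non-reperfused myocardial infarction. The control group was ITGA5 fl/fl (3 libraries), in which both copies of the integrin α5 gene are floxed but intact. The comparison group was Myα5KO (3 libraries), littermates that carry the same floxed alleles and in which the LyzM promoter drives Cre. LyzM-Cre is active in myeloid cells generally and not in macrophages alone, and the controls are described as ITGA5 fl/fl without it, so the effects of Cre and of integrin loss cannot be told apart in these libraries. Cells of individual hearts were depleted of Ly6G+ cells and then selected for CD11b on magnetic columns. In order to examine whether the scavenger receptor repertoire of infarct macrophages differed in the absence of integrin α5, the 2 groups were compared gene by gene.

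The family is held together by what its members bind rather than by common ancestry. The class A receptors are trimeric membrane proteins with a collagen-like stalk (Msr1, Marco and Colec12). Those of class B span the membrane at both ends and handle lipoproteins or lysosomal cargo (Scarb1 and Scarb2). Olr1 encodes LOX-1, a C-type lectin that binds oxidized low-density lipoprotein, and Cd5l encodes a secreted protein built of scavenger receptor cysteine-rich (SRCR) domains. In an infarct, where dying cardiomyocytes have to be removed, macrophages with such receptors are among the first phagocytes to meet the debris.

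In Myα5KO macrophages 3 of the 7 genes were lower, Marco, Olr1 and Cd5l, and none was higher. Genes were called at an adjusted p of 0.05 or less in the quasi-likelihood test of edgeR. Over all 14522 tested genes, 8.75% were called in either direction, 5.19% lower and 3.56% higher. With scaling by library totals alone, the calls over all genes shifted from 517 higher and 754 lower to 1212 higher and 518 lower. The remaining 4 genes (Msr1, Colec12, Scarb1 and Scarb2) were not called. Olr1 and Scarb1 were the 2 members whose groups did not overlap, a pattern seen in 28.6% of all tested genes. The median log2 fold change of the 7 genes was -0.24, beside 0.01 for all tested genes. Without ITGA5 fl/fl replicate 3, or under DESeq2, Olr1 was the single member called lower, and leaving out 1 library in turn gave 1 to 4 lower members. Bulk RNA does not separate fewer cells of a type from less RNA per cell, and this holds for every comparison below.

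Totals were 15424451 to 18419287 counts per library, and replicate libraries differed from each other by more than sampling noise. The targeted gene Itga5 fell to 8.02% of the ITGA5 fl/fl level, from 607 ± 43.2 to 48.7 ± 1.48 CPM (counts scaled to a common library size by the TMM method; SD, n = 3 each; log2 fold change -3.64, SE 0.08, edgeR adjusted p 4.42e-12). The cells carried macrophage markers: the sum of 10 such genes lay between 12246 and 13140 CPM in the 6 libraries, with Csf1r at 2188 ± 104 CPM and Adgre1 at 1313 ± 80.3 CPM in ITGA5 fl/fl. Markers of other cells were also present at lower levels and are given beside the results they accompany.

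The promoters of the 3 genes that were lower are shown, because they are the sequences from which the differing transcripts start. Each line gives 250 bases before and 50 bases after the RefSeq start site in build GRCm38.p6, read 5′ to 3′ on the strand of the gene. The window of Marco is chr1:120504975-120505274 on the minus strand, that of Olr1 is chr6:129507116-129507415 on the minus strand and that of Cd5l is chr3:87357631-87357930 on the plus strand. Capitals mark matches to the core motif of PU.1 (GAGGAA, or TTCCTC where it lies on the other strand) and of AP-1 (TGANTCA), 2 factor families known from myeloid genes.
Marco: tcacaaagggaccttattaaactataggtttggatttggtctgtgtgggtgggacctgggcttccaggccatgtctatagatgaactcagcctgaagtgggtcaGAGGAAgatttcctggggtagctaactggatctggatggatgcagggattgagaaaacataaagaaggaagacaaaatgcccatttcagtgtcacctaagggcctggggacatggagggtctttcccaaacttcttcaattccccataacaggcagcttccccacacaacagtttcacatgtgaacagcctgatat
Olr1: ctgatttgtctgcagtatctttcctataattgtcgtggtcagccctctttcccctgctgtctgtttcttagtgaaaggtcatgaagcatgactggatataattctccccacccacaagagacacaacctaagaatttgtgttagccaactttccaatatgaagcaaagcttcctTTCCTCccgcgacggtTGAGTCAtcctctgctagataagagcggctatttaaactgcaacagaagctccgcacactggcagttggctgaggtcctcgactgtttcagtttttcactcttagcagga
Cd5l: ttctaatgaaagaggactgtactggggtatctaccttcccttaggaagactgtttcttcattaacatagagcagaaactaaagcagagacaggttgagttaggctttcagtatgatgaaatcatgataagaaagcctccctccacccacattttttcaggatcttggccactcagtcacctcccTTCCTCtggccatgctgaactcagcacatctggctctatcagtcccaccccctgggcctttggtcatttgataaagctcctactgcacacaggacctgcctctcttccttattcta

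A PU.1 core stood in each of the 3 windows, beginning at position -146 in Marco, -76 in Olr1 and -66 in Cd5l, counted from the start site. It is a common word, found on either strand in 28.3% of 32851 RefSeq promoters of the same length. The AP-1 match TGAGTCA at position -60 of Olr1 was the only one among the 3, and TGANTCA occurs in 7.81% of promoters. The 2 motifs do not overlap in Olr1. The core of the antioxidant response element (TGACNNNGC, in 12.4% of promoters) was searched on both strands and had no match in these windows. Scarb2, which was not called, was the only other member with a RefSeq promoter. Its window held this core (TGACCGCGC, position -99) and no match to the PU.1 or AP-1 motif. Motifs were chosen with the results known, and a match describes letters and not occupancy.

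**Figure D1:**
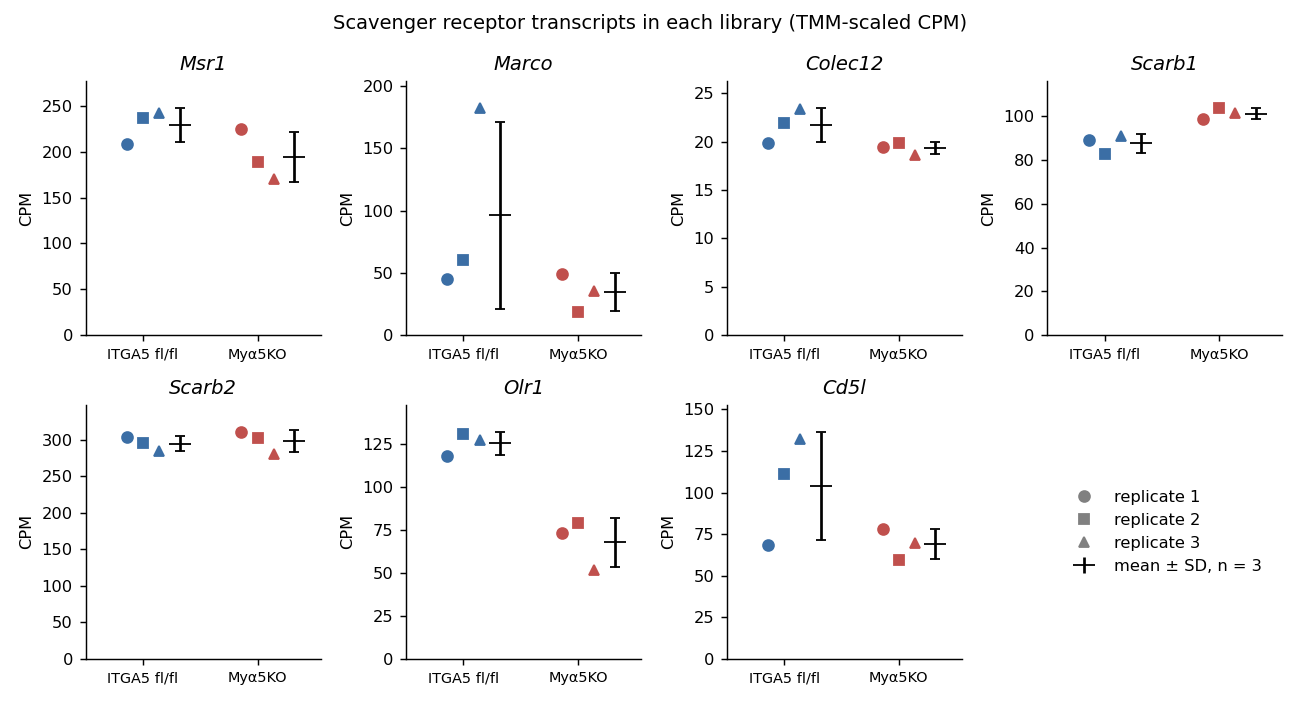
Level of each gene in each library in TMM-scaled CPM (vertical axes start at 0 and differ between panels), with ITGA5 fl/fl in blue, Myα5KO in red, and the mean ± SD of 3 libraries in black. Olr1 is separated between the groups (118 to 131 against 51.8 to 79.0 CPM), whereas Marco and Cd5l overlap and ITGA5 fl/fl replicate 3 is the highest library for both.

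Olr1 was the member with the clearest difference. Its product LOX-1 binds oxidized lipoproteins, apoptotic cells and activated platelets. The gene (ENSMUSG00000030162, chr6:129485244-129507165, minus strand, protein coding) had 118, 131 and 127 CPM in the ITGA5 fl/fl libraries against 73.0, 79.0 and 51.8 CPM in the Myα5KO libraries. Every Myα5KO library lay below every ITGA5 fl/fl library, and the smallest gap, between 79.0 and 118 CPM, exceeded the whole range within either group. Mean expression was 125 ± 6.67 CPM in ITGA5 fl/fl against 68.0 ± 14.3 CPM in Myα5KO (SD, n = 3 each), which left 54.2% in Myα5KO. For Olr1 this gave a log2 fold change of -0.88 (SE 0.12, 95% interval -1.14 to -0.63, edgeR adjusted p 0.000645). The difference was called when any single library was left out, with log2 fold changes of -1.01 to -0.72.

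Olr1 lies in a cluster of C-type lectin genes expressed by myeloid and natural killer cells. Of 19 tested genes within 250 kb of it, a window chosen after the data were seen, 1 was higher (Klrd1, a receptor gene of natural killer cells, log2 fold change 0.66, with calls lost in 4 of the 6 fits without 1 library) and 1 was lower (Gabarapl1, log2 fold change -0.33, SE 0.06, edgeR adjusted p 0.00720). Gabarapl1 encodes an autophagy protein and is no lectin. The closest tested lectin gene was Clec7a, which encodes the β-glucan receptor Dectin-1 and lies 12.5 kb away. Clec7a had a mean of 438 CPM in ITGA5 fl/fl against 436 CPM in Myα5KO (log2 fold change -0.00, SE 0.07, edgeR adjusted p 0.982). The abundant lectin Clec12a had means of 227 and 258 CPM and was not called either (log2 fold change 0.19, SE 0.09, edgeR adjusted p 0.236).

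The genes most like Olr1 over the 6 libraries were Kif1a, Txnrd1 and Trem1, out of 9359 genes compared. Likeness was the root mean square difference of log2 CPM after each gene was centred on its own mean, and was 0.10 for Kif1a, 0.11 for Txnrd1 and 0.11 for Trem1. Txnrd1, which encodes thioredoxin reductase, was by far the most abundant of the 3, with 1067, 1050 and 1088 CPM in ITGA5 fl/fl against 589, 648 and 519 CPM in Myα5KO. Its lowest library was Myα5KO replicate 3, as for Olr1, which a choice by likeness to Olr1 favours. Trem1, an activating receptor of myeloid cells, had 87.3, 114 and 111 CPM against 67.4, 67.4 and 49.1 CPM.

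Of the class A receptors, Marco was lower while Msr1 and Colec12 were not called. Marco is known from macrophages of the splenic marginal zone, the lung and the peritoneum, where it binds bacteria and particles. The gene (ENSMUSG00000026390, chr1:120474538-120505024, minus strand, protein coding) had 45.3, 60.7 and 182 CPM in ITGA5 fl/fl against 49.0, 18.5 and 35.5 CPM in Myα5KO. ITGA5 fl/fl replicate 3 stood apart, at 4.02 times the lowest library of its group, and ITGA5 fl/fl replicate 1 lay below Myα5KO replicate 1. Mean expression was 96.1 ± 75.0 CPM in ITGA5 fl/fl against 34.3 ± 15.3 CPM in Myα5KO (SD, n = 3 each). The log2 fold change of Marco was -1.49 (SE 0.42, 95% interval -2.39 to -0.59, edgeR adjusted p 0.0420). Leaving out ITGA5 fl/fl replicate 3 changed it to -0.63 (edgeR adjusted p 0.232), and without Myα5KO replicate 2 or replicate 3 the call was also lost (log2 fold changes -1.19 and -1.52, edgeR adjusted p 0.118 and 0.0959).

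Msr1 encodes the founding class A receptor, which takes up acetylated and oxidized low-density lipoprotein. The gene (ENSMUSG00000025044, chr8:39581685-39642673, minus strand, protein coding) had 208, 237 and 242 CPM in ITGA5 fl/fl against 224, 189 and 171 CPM in Myα5KO. The groups overlapped, with Myα5KO replicate 1 above ITGA5 fl/fl replicate 1. Means were 229 ± 18.2 and 195 ± 27.3 CPM (SD, n = 3 each), with a log2 fold change of -0.24 (SE 0.09, 95% interval -0.44 to -0.03, edgeR adjusted p 0.150). The interval leaves room for a fall of up to 0.44 on the log2 scale, and without Myα5KO replicate 1 Msr1 was called lower (-0.35, edgeR adjusted p 0.0219).

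Colec12 encodes a class A receptor with a carbohydrate recognition domain that is best known from endothelium. The gene (ENSMUSG00000036103, chr18:9707648-9877995, plus strand, protein coding) was the least abundant member, with 19.8, 21.9 and 23.3 CPM in ITGA5 fl/fl against 19.5, 19.9 and 18.7 CPM in Myα5KO. The groups overlapped by a narrow margin. The log2 fold change was -0.17 (SE 0.09, 95% interval -0.37 to 0.03, edgeR adjusted p 0.303). The sum of 9 endothelial markers overlapped between the groups, at 386 ± 20.5 CPM in ITGA5 fl/fl against 403 ± 28.6 CPM in Myα5KO (SD, n = 3 each; exact permutation test, p 0.5). Of the 50-base words of Colec12, 3.89% also occur in other genes, the highest share among the members.

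Cd5l, the secreted member, was lower by a smaller margin than Marco. Its protein, also called AIM, is made by tissue macrophages such as those of the liver and spleen, circulates with IgM and binds cell debris. The gene (ENSMUSG00000015854, chr3:87357881-87371073, plus strand, protein coding) had 68.8, 111 and 132 CPM in ITGA5 fl/fl against 77.9, 59.4 and 69.9 CPM in Myα5KO. ITGA5 fl/fl replicate 1 fell within the Myα5KO range, and the other 2 control libraries lay above it. Means were 104 ± 32.4 and 69.1 ± 9.27 CPM (SD, n = 3 each), which left 66.3% in Myα5KO. For Cd5l this gave a log2 fold change of -0.60 (SE 0.17, 95% interval -0.97 to -0.22, edgeR adjusted p 0.0477). The call was kept in 2 of the 6 fits that left out 1 library. Leaving out ITGA5 fl/fl replicate 2 changed the log2 fold change to -0.55 (edgeR adjusted p 0.145), replicate 3 of that group to -0.39 (0.220), Myα5KO replicate 2 to -0.50 (0.144) and Myα5KO replicate 3 to -0.60 (0.0962).

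Like Marco and Cd5l, most listed markers of body cavity macrophages were lower in Myα5KO. These cells reside in the fluid of the pericardial, pleural and peritoneal spaces, and 7 of 10 listed markers were lower in Myα5KO (edgeR, adjusted p up to 0.05), among them Serpinb2, Alox15, Prg4 and F5 with log2 fold changes of -2.45, -2.24, -2.24 and -1.26. The first 3 of these were called when any 1 library was left out, and F5 lost its call without ITGA5 fl/fl replicate 2 or 3 or Myα5KO replicate 3 (log2 fold changes -0.95, -1.13 and -1.20). DESeq2 called 6 of the 10 lower and limma-voom 5. Over all tested genes edgeR called 5.19% lower. F5 was called by neither DESeq2 nor limma-voom, and Alox15 was not called by limma-voom. The limma-trend fits did not call Serpinb2, Alox15 or F5, and called Prg4 only on log2(FPKM + 0.1). The summed level of the 10 markers was 151, 359 and 308 CPM in ITGA5 fl/fl against 135, 95.5 and 117 CPM in Myα5KO. The groups did not overlap, and ITGA5 fl/fl replicate 1, the control library with the least Marco and Cd5l, was also the lowest control library for this sum. The highest control library was replicate 2 for the sum (359 CPM) but replicate 3 for Marco (182 CPM) and Cd5l (132 CPM). In ITGA5 fl/fl replicate 2 Marco was at 60.7 CPM. The exact permutation test gave p 0.1, the smallest that 3 against 3 libraries allow (adjusted over 12 marker lists, 0.171). Gata6, the factor that defines the peritoneal cells, was at 3.72 ± 0.50 CPM in ITGA5 fl/fl against 3.26 ± 0.19 CPM in Myα5KO (SD, n = 3 each) and was not called. The part of these markers in the Marco and Cd5l results was not tested.

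The genes with patterns most like Cd5l were Lrg1, Ms4a8a and Sfn, with root mean square differences of 0.10, 0.12 and 0.13 log2 units over the 6 libraries. Lrg1 is itself 1 of the 10 body cavity markers, whereas Ms4a8a and Sfn are not on that list. How often a gene of such a list would be found by this likeness was not tested. Those most like Marco were Padi4, Mlxipl and Dmpk, and were much less close (0.47, 0.48 and 0.53). None of these 3 had as high a level in ITGA5 fl/fl replicate 3 relative to its group as Marco had: Padi4, for example, had 18.6, 45.7 and 48.8 CPM in the control libraries.

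**Figure D2:**
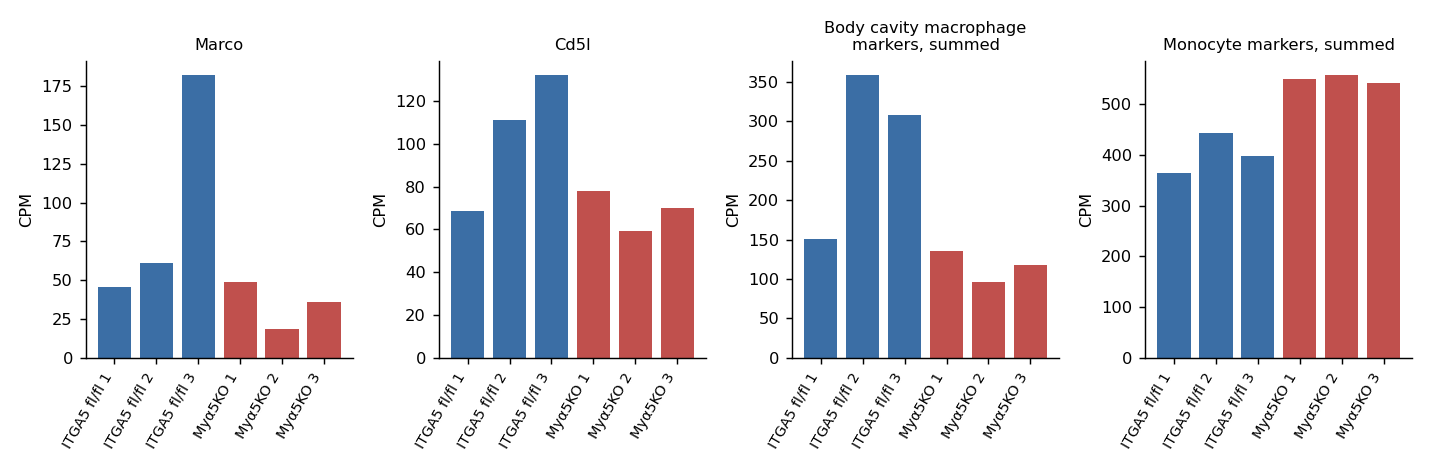
Marco, Cd5l, the summed body cavity macrophage markers and the summed monocyte markers in each of the 6 libraries, in TMM-scaled CPM (bars start at 0; blue ITGA5 fl/fl, red Myα5KO). ITGA5 fl/fl replicate 1 is low for Marco, Cd5l and the body cavity sum (45.3, 68.8 and 151 CPM), and the monocyte sum is higher in all Myα5KO libraries (542 to 558 against 364 to 444 CPM).

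Markers of other cells differed between the groups as well. The sum of 7 monocyte markers was 364, 444 and 399 CPM in ITGA5 fl/fl against 550, 558 and 542 CPM in Myα5KO, and 4 of the 7 genes were higher. Among 9 tested granulocyte markers 6 were higher (S100a8, S100a9, Ltf, Camp, Ngp and Lcn2), whereas Csf3r, Retnlg and Mmp8 were not called. Ly6g and Cxcr2 were too low to test, with means of 0.02 and 0.45 CPM in ITGA5 fl/fl against 0.05 and 0.39 CPM in Myα5KO. The 11 listed genes summed to 229, 190 and 199 CPM against 298, 249 and 383 CPM. Of 10 fibroblast markers edgeR called 2 lower, Cthrc1 (log2 fold change -0.60) and Postn (-0.40). Postn lost its call without ITGA5 fl/fl replicate 1 (-0.26) or 3, without Myα5KO replicate 3 and with scaling by library totals. The fibroblast sums were 1764 ± 145 CPM for ITGA5 fl/fl and 1426 ± 185 CPM for Myα5KO, without overlap (SD, n = 3 each). The sums of cardiomyocyte markers were 13.1 to 16.9 CPM in Myα5KO and 20.2 to 22.7 CPM in the controls, those of B cell markers 159 to 244 against 113 to 156 CPM, and those of T and NK cell markers 18.1 to 21.7 against 11.9 to 16.3 CPM, all without overlap. Each of these sums had the smallest possible exact permutation p of 0.1. The sums of macrophage markers (p 0.2), of 8 resident cardiac macrophage markers (p 0.6), of dendritic cell markers (p 0.5) and of liver and spleen macrophage markers (p 0.2) overlapped between the groups in the same exact test. Clec4f, which defines liver macrophages, had no count in any library. The part of these markers in the scavenger receptor results was not tested.

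The class B receptors were not lower. Scarb1 encodes SR-BI, which binds high-density lipoprotein and exchanges cholesterol with it. The gene (ENSMUSG00000037936, chr5:125277087-125341094, minus strand, protein coding) had 89.2, 82.8 and 91.1 CPM in ITGA5 fl/fl against 98.5, 104 and 101 CPM in Myα5KO. All Myα5KO libraries lay above all ITGA5 fl/fl libraries, by a small margin. Means were 87.7 ± 4.32 and 101 ± 2.56 CPM (SD, n = 3 each), with a log2 fold change of 0.21 (SE 0.06, 95% interval 0.07 to 0.34). The edgeR adjusted p was 0.0635, so Scarb1 was not called. It was called higher with scaling by library totals (log2 fold change 0.29, edgeR adjusted p 0.0115).

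Scarb2 encodes LIMP-2, an abundant protein of the lysosomal membrane. The gene (ENSMUSG00000029426, chr5:92441314-92506833, minus strand, protein coding) had 304, 295 and 284 CPM in ITGA5 fl/fl against 311, 303 and 281 CPM in Myα5KO. The ranges of the groups almost coincided. The log2 fold change was 0.02 (SE 0.07, 95% interval -0.13 to 0.16, edgeR adjusted p 0.913), an interval that holds no change larger than 0.16 on the log2 scale in either direction. Of the 11 tested genes of a lysosomal list, Lamp1, Lamp2 and Cd63 among them, none was called by edgeR, DESeq2 or limma-voom, and 1 was higher at an unadjusted p under 0.05.

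**Figure D3:**
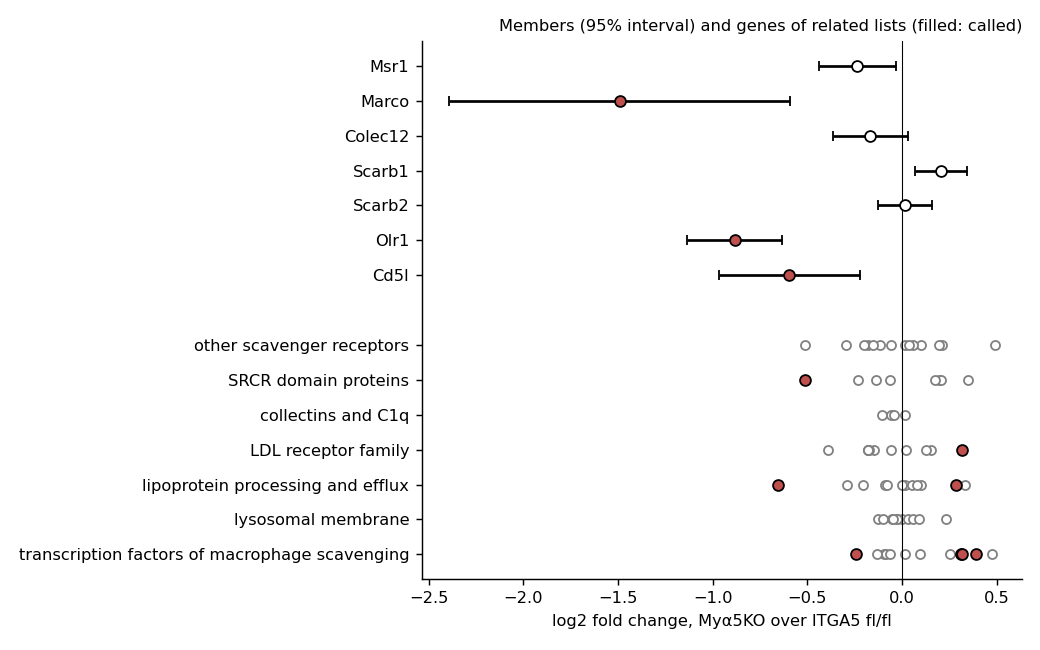
Log2 fold change (Myα5KO over ITGA5 fl/fl) of the 7 genes with 95% intervals, and of every tested gene of 7 related lists; red points were called by edgeR (adjusted p up to 0.05). The 3 red points among the 7 genes are at -1.49, -0.88 and -0.60, and the list of 14 other scavenger receptors holds none.

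Expression per gene length places the 7 genes on one scale. The deposited FPKM values are counts over gene length, scaled between libraries by the DESeq2 size factor and not by total depth. On these values, the means in ITGA5 fl/fl were 50.9 ± 15.8 for Cd5l, 49.7 ± 38.9 for Marco, 46.7 ± 1.60 for Scarb2, 36.0 ± 2.81 for Msr1, 34.9 ± 1.77 for Olr1, 10.3 ± 0.54 for Scarb1 and 6.50 ± 0.52 for Colec12 (SD, n = 3). The library values of Cd5l and Marco overlapped each other and those of Scarb2, Msr1 and Olr1, so the place of these 2 genes in the order is not fixed by the data. Msr1 and Olr1 overlapped too, and both lay below Scarb2 in every ITGA5 fl/fl library. Scarb1 lay below those 5 genes and above Colec12 in every ITGA5 fl/fl library. Over the mean of all 6 libraries, Colec12 still exceeded 61.3% of all tested genes, and Scarb2 93.1%.

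In Myα5KO the order was led by Scarb2 at 47.1 ± 2.81 FPKM, above Cd5l at 33.7 ± 4.55, Msr1 at 30.5 ± 4.48, Olr1 at 18.9 ± 4.09, Marco at 17.7 ± 7.92, Scarb1 at 11.8 ± 0.30 and Colec12 at 5.78 ± 0.23 (SD, n = 3). Scarb2 lay above every other member in each library, while Cd5l overlapped Msr1 and Olr1 overlapped Marco. Olr1 and Msr1, whose ranges overlapped in the controls, were separated here, with Olr1 at 14.3 to 22.0 and Msr1 at 26.4 to 35.3 FPKM. In Myα5KO replicate 2, Marco (9.55 FPKM) lay below Scarb1.

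**Figure D4:**
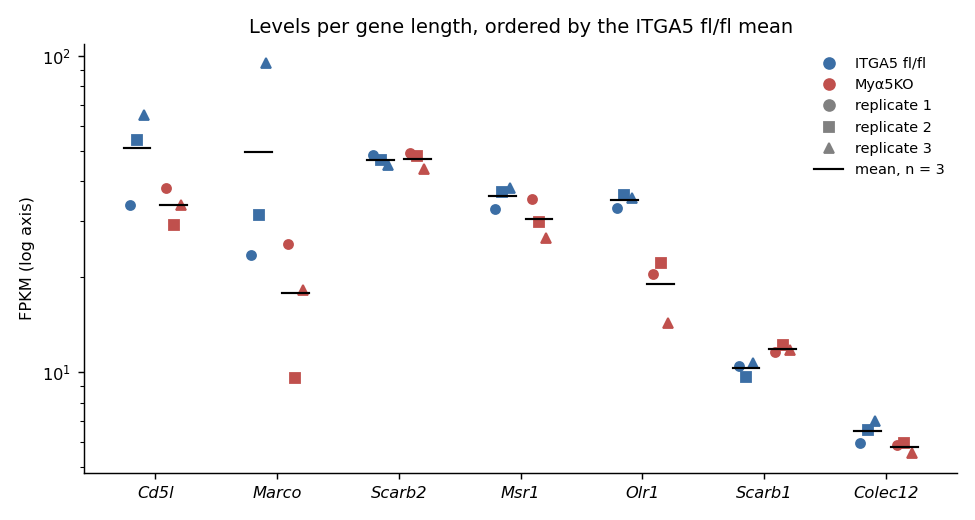
Deposited FPKM of the 7 genes in each library on a log axis, ordered by the ITGA5 fl/fl mean (blue ITGA5 fl/fl, red Myα5KO, lines at the mean of 3 libraries). Scarb2 stays near 47 FPKM in both groups, while Marco spreads from 9.55 to 94.4 FPKM.

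The scavenger receptors listed outside these 7 genes were not called, as was the case for most tested genes (8.75% were called). Of 14 other scavenger receptors, all tested, 0 were called by edgeR, 0 passed at an unadjusted p under 0.05, and 0 were called by DESeq2 or limma-voom. The list includes abundant receptors of these cells: Cd68, Fcrls, Cxcl16, Stab1, Mrc1 and Cd36 had means of 710, 386, 237, 169, 149 and 117 FPKM in ITGA5 fl/fl, all above the 7 members. Their log2 fold changes lay between -0.18 for Cd36 and 0.10 for Stab1. Others were at a low level: Scarf2, Ager, Scara3, Stab2, Scara5 and Megf10 had means of 1.42, 1.32, 0.59, 0.17, 0.12 and 0.11 FPKM in ITGA5 fl/fl. The median of the list was -0.02. Cd163, the SRCR receptor for haemoglobin and haptoglobin, had 75.5, 94.6 and 116 CPM against 126, 104 and 97.5 CPM and was not called (log2 fold change 0.20, SE 0.13, edgeR adjusted p 0.388).

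Among 8 tested proteins with SRCR domains, Loxl2, a collagen-crosslinking lysyl oxidase, was lower (log2 fold change -0.51, SE 0.14, edgeR adjusted p 0.0380) and edgeR called no other, whereas DESeq2 and scaling by library totals each called 1 gene of the list higher. Loxl2 is at a low level, 15.8 ± 2.76 CPM in ITGA5 fl/fl against 11.1 ± 1.57 CPM in Myα5KO (SD, n = 3 each). It lost its call without ITGA5 fl/fl replicate 1 (-0.39) or 3 (-0.51) or Myα5KO replicate 1 (-0.46) or 3 (-0.45). Loxl2 was also not called with scaling by library totals (-0.43). Of the collectins and C1q genes, which share collagen-like stalks with the class A receptors, 4 of 9 were tested and none was called by edgeR, DESeq2 or limma-voom or passed at an unadjusted p under 0.05. The 3 C1q chains were abundant, with C1qb at 2817 ± 42.4 CPM in ITGA5 fl/fl against 2738 ± 174 CPM in Myα5KO (SD, n = 3 each), and 4 of the collectins had no count in any library. In the LDL receptor family 1 of 11 tested genes was called by edgeR, the sorting receptor Sorl1, which rose from 135 ± 12.3 to 168 ± 17.0 CPM (SD, n = 3 each; log2 fold change 0.31, SE 0.09, edgeR adjusted p 0.0366). Sorl1 lost its call without ITGA5 fl/fl replicate 2 (0.32) or 3 (0.25) or Myα5KO replicate 1 (0.23) or 2 (0.31). The limma-trend fits called neither Loxl2 nor Sorl1. Under limma-voom, median-ratio or upper quartile scaling and either other count filter, 1 gene of the family was called lower; Lrp8, at 15.1 ± 1.15 and 11.5 ± 1.28 CPM (SD, n = 3 each), was the nearest to the threshold in edgeR (log2 fold change -0.39, SE 0.11, adjusted p 0.0503).

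Lipid taken up by scavenger receptors is stored, hydrolysed or exported, and 2 of 12 genes of these steps were called, in opposite directions. Abca1, the exporter of cholesterol to lipid-poor apolipoprotein A-I, had 1721, 1458 and 1625 CPM in ITGA5 fl/fl against 1148, 1078 and 827 CPM in Myα5KO. The groups did not overlap. The log2 fold change of Abca1 was -0.65 (SE 0.11, edgeR adjusted p 0.00291) and stayed called with any 1 library left out (-0.75 to -0.52). Abcg1, which passes cholesterol to high-density lipoprotein, rose from 103 ± 9.02 to 125 ± 1.67 CPM (SD, n = 3 each; log2 fold change 0.28, SE 0.07, edgeR adjusted p 0.0247), and lost its call without ITGA5 fl/fl replicate 2 (0.27) or 3 (0.23) or Myα5KO replicate 2 (0.27). Apoe, the most abundant gene of the list, fell short of the threshold at 25020 ± 1431 and 20441 ± 2602 CPM (log2 fold change -0.29, SE 0.10, edgeR adjusted p 0.104). On this list DESeq2 called 1 gene higher and 2 lower, and the fit with no count filter called 2 higher and 2 lower. The limma-trend fits called none higher.

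Transcription factors known to act on scavenging genes were mixed. Of 12 tested, 3 were higher (Maf, Tfeb and Nr1h3) and 1 was lower (Ets2). Maf, a factor of tissue macrophages, rose from 166 ± 6.63 to 218 ± 8.93 CPM (SD, n = 3 each; log2 fold change 0.39, SE 0.07, edgeR adjusted p 0.00296). Tfeb, which drives lysosomal genes, and Nr1h3, which encodes the oxysterol receptor LXRα, had log2 fold changes of 0.32 (edgeR adjusted p 0.0371) and 0.31 (0.0492). Ets2 fell by 0.24 on the log2 scale (edgeR adjusted p 0.0475) and was not called with scaling by library totals, which gave 5 higher and 0 lower on this list. Maf stayed called with any 1 library left out (0.35 to 0.41). Nr1h3 (0.26 to 0.37) and Ets2 (-0.27 to -0.19) were called in none of these 6 fits, and Tfeb lost its call without ITGA5 fl/fl replicate 1 (0.28), 2 (0.34) or 3 (0.33) or Myα5KO replicate 3 (0.22). Over all 18 alternatives, calls were kept in 17 for Maf, 10 for Tfeb, 6 for Ets2 and 3 for Nr1h3. DESeq2 called 2 genes of this list higher, without Nr1h3, and 1 lower. Spi1, which encodes PU.1, had 448 ± 7.76 and 422 ± 4.56 CPM and was not called (log2 fold change -0.09, SE 0.06, edgeR adjusted p 0.453).

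**Figure D5:**
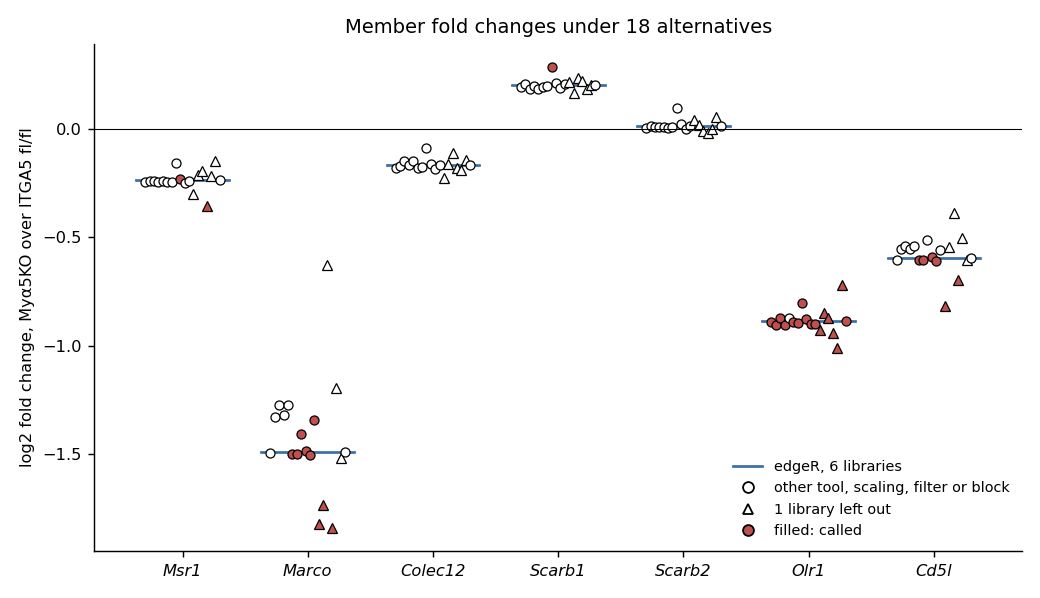
Log2 fold change of each of the 7 genes under 18 alternatives (circles: another tool, scaling, filter, block or threshold; triangles: 1 library left out; red: called; blue line: the edgeR fit to all 6 libraries). Olr1 is called in 17 of 18, Marco in 9 with a range of -1.84 to -0.63, and Cd5l in 6.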

How the data were processed

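RNA-seq was performed on Ly6G- CD11b+ cells of 6 infarcted hearts, 3 ITGA5 fl/fl and 3 Myα5KO, and libraries were grouped by their titles. Per the labels and methods, the authors aligned paired-end reads to GRCm38 with TopHat2 2.0.9 and deposited HTSeq 0.6.1 counts per gene, without normalization; Cufflinks 2.1.1 is also listed in the submitters' processing notes. Handling of strand and of multi-mapped reads is not given in the sources used here. A check showed each FPKM value the authors deposited to be the count over the gene length, times a library constant inversely proportional to the DESeq2 size factor.

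Genes were tested with edgeR 4.0.16 (quasi-likelihood test, TMM scaling, filter of minimum count 10 and minimum total 15) in R 4.3.3, with two-sided p-values adjusted by Benjamini-Hochberg over 14522 genes. SE is the log2 fold change divided by the square root of the F statistic. Marker sums were compared with a two-sided exact permutation test. The alternatives used DESeq2 1.42.0, limma 3.58.1 (voom, and trend on log2(FPKM + 1) or log2(FPKM + 0.1) where FPKM reached 1 in 3 or more libraries), other scalings, filters, a replicate block, a threshold of 0.01 and each library left out. Scripts were tested on simulated data.

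Named are all 7 genes, Itga5, up to 4 called genes of each related list with the largest change, and for each called gene the 3 of most similar pattern (mean of at least 100 counts per library). Any further gene was picked with its values in view. The 7 genes and all lists were chosen with earlier results of these data known. Promoters came from RefSeq (GRCm38.p6), which matched 4 of the 7 genes; exon overlaps and shared 50-base words came from the GENCODE M21 annotation, and no exon of the 7 genes overlapped another gene. Counts are amplified reads without molecular identifiers, so they are not counts of molecules. The SEs and intervals of the edgeR fits include variation between libraries and not counting error only.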

Additional observations from a re-analysis of the deposited data

How the results depend on the processing

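Olr1 stayed negative in all 18 alternatives and was called in 17. The exception was limma-trend on log2(FPKM + 1) without an FPKM filter, which tests more genes (-0.87, adjusted p 0.108). Adjusted p over its alternatives ranged from 7.2e-11 to 0.108, leaving aside the fit with no count filter, whose prior degrees of freedom were infinite. Marco lost its call under DESeq2 (-1.50), limma-voom (-1.33), limma-trend on log2(FPKM + 1) with and without the FPKM filter (-1.27 for both) and on log2(FPKM + 0.1) (-1.32), and at a threshold of 0.01 (-1.49). Cd5l lost its call under the same fits (-0.60, -0.55, -0.54, -0.54, -0.55 and -0.60), with library size scaling (-0.51) and with the replicate block (-0.56, adjusted p 0.0759). The number of members called lower was therefore 1 under DESeq2, limma-voom, both filtered limma-trend fits and the 0.01 threshold, and 0 in the unfiltered one. Library size scaling called 1 member higher, Scarb1 (0.29). With no count filter Msr1 was called lower (-0.23). The cause of these changes was not tested.

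Leaving out each library gave log2 fold changes of -0.35 to -0.15 for Msr1, -1.84 to -0.63 for Marco, -1.01 to -0.72 for Olr1, 0.17 to 0.23 for Scarb1, -0.82 to -0.39 for Cd5l and -0.23 to -0.11 for Colec12, and 1 to 4 members called lower. Scarb2 ranged from -0.018 to 0.058 and turned negative without ITGA5 fl/fl replicate 3 (-0.01) or Myα5KO replicate 1 (-0.018). The difference in summed resident cardiac macrophage markers (Myα5KO minus ITGA5 fl/fl) ranged from -29.0 to 109 CPM, and that in summed macrophage markers turned from -346 to 372 CPM with library size scaling. Same-numbered libraries did not deviate together (correlations across genes of 0.05, -0.06 and 0.04), so the numbers were not taken as pairs; the replicate block gave 464 higher and 717 lower genes in all. Colec12, with 296 to 410 counts per library, was the member with the least depth.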

Other observations

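Tested genes within 250 kb of the other members, a window chosen after the data were seen, also held a few calls. The chemokine genes Cxcl9 and Cxcl10 beside Scarb2 were higher in Myα5KO, Cxcl9 from a mean of 10.2 to 20.1 CPM (log2 fold change 0.98, SE 0.26, edgeR adjusted p 0.0306) and Cxcl10 from 71.9 to 94.7 CPM (log2 fold change 0.39, SE 0.10, edgeR adjusted p 0.0228), and none of the other 9 neighbours of Scarb2 was called. Cxcl9 kept its call in 2 and Cxcl10 in 4 of the 6 fits that left out 1 library (from 0.50 and from 0.28 on the log2 scale; the lowest value of Cxcl9 came without Myα5KO replicate 2 and that of Cxcl10 without ITGA5 fl/fl replicate 1). Beside Cd5l, the gene of the transcriptional repressor Etv3 was lower, from 603 to 493 CPM (log2 fold change -0.29, SE 0.08, edgeR adjusted p 0.0472; called in 2 of the 6 fits without 1 library, -0.36 to -0.22), while Fcrls, a scavenger receptor gene 94.1 kb from Cd5l, was not called at 904 and 926 CPM (log2 fold change 0.04, SE 0.08, edgeR adjusted p 0.842). Marco had 1 tested neighbour, Colec12 had 3 and Msr1 had 0, with no call among them.

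Vsig4, the complement receptor of resident macrophages, was the only gene edgeR called among 8 resident cardiac macrophage markers, while DESeq2 and scaling by library totals each also called 1 of them higher. It had 17.6, 20.3 and 25.3 CPM in ITGA5 fl/fl and 12.1, 13.3 and 11.2 CPM in Myα5KO (log2 fold change -0.79, SE 0.13, edgeR adjusted p 0.00284), without overlap, and stayed called with any 1 library left out. Spic, a factor of iron-recycling macrophages, was the only gene edgeR called among 5 tested liver and spleen macrophage markers (log2 fold change -0.50, SE 0.14, edgeR adjusted p 0.0346; not called with scaling by library totals, and called in 2 of the 6 fits without 1 library, -0.66 to -0.37), with 20.2 ± 3.02 and 14.3 ± 2.47 CPM (SD, n = 3 each).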
